A study of Mus musculus with 6 samples.

Results

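The genes described here are 35 genes of the unfolded protein response and the integrated stress response, chosen by name from knowledge of these pathways, out of 55573 genes counted by RNA-Seq in cultures of mouse osteoclasts. All 35 were matched to an Ensembl identifier and passed the filter on low counts. They fall into 13 chaperones and folding enzymes of the endoplasmic reticulum (ER), 4 factors of ER-associated degradation, 4 genes for the sensors of ER stress and XBP1, 9 genes of the ATF4 arm, and 5 enzymes of serine, one-carbon and cysteine metabolism. Bone marrow-derived macrophages (BMMs) of 10-week-old male mice received, over 4 days of culture, M-CSF, a growth factor of macrophages, at 30 ng/ml, and RANKL, the cytokine that drives osteoclast formation, at 10 ng/ml. Together they turn these precursors into multinucleated bone-resorbing cells. The 3 Rosa-Hes1 libraries came from Ctsk Cre/WT;Rosa Hes1 mice, in which Cre placed in the locus of cathepsin K, a protease of osteoclasts, removes a STOP cassette and lets the Rosa26 locus express HES1, a transcriptional regulator downstream of Notch, together with GFP. The 3 control libraries came from Rosa [STOP]Hes1 littermates without Cre, which the sample labels call wild type. The Rosa [STOP]Hes1 line had an ICR background and the Ctsk-Cre line a C57BL/6 background. Because the Cre replaces one Ctsk allele and was absent from the controls, effects of HES1 and of the Cre allele cannot be told apart here.

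A cell folds its secreted and membrane proteins in the ER. When unfolded protein accumulates there, IRE1α splices the Xbp1 mRNA, ATF6 is cut to release a transcription factor, and PERK phosphorylates the translation factor eIF2α. XBP1 and ATF6 induce chaperones and degradation factors. Phosphorylated eIF2α lowers general translation but favours translation of ATF4, and since other kinases that sense amino acid shortage, heme or viral RNA phosphorylate the same protein, this shared route is called the integrated stress response. Osteoclasts make and secrete large amounts of lysosomal and proteolytic enzymes, and in mice the IRE1α and XBP1 branch has a known role in their formation. Most of these activation steps are splicing, cleavage or phosphorylation, which counts per gene do not measure.

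Each library held 13038362 to 15956331 counts in genes. Levels are given as CPM, counts divided by the size of the library after TMM scaling in edgeR and brought to a common size. Hes1 was at 4.95, 4.83 and 6.91 CPM in Rosa-Hes1 cultures, against 0.517, 0.557 and 0.296 CPM in control cultures (log2 fold change 3.57, SE 0.30, adjusted p = 0.00477). Of 10 osteoclast markers 9 were higher in Rosa-Hes1 cultures, and their summed level was 17050 to 20015 CPM there and 10755 to 13810 CPM in control cultures. Of 10 macrophage precursor markers 1 was higher, 1 lower and 8 not called. Their sum was 8792 to 10254 CPM in Rosa-Hes1 and 8939 to 10651 CPM in control cultures. The 12 markers of dividing cells summed to 1580 to 2426 CPM in Rosa-Hes1 and to 2596 to 2971 CPM in control cultures, and 4 of them were lower. Rosa-Hes1 replicate 2 lay nearest to the controls on the first principal component, which held 38.1% of the variance. The B cell markers Ms4a1 and Pax5 and the plasma cell gene Jchain were under the filter of 10 counts summed over the 6 libraries. So were 5 of 8 T and NK cell markers, among them Cd3e, Cd3d and Ncr1. All 8 summed to 4.29 to 8.80 CPM in Rosa-Hes1 and 5.25 to 9.10 CPM in control cultures. Of 7 erythroid and megakaryocyte markers 5 were under the filter, and all 7 summed to 21.9 to 66.3 CPM in Rosa-Hes1 cultures. In control cultures they summed to 18.9 to 42.1 CPM, and no gene of either list was called. Of the 10 B and plasma cell markers 5 passed the filter, all with positive log2 fold changes, and 1, Sdc1, was higher. Their sum, of which Sdc1 held most, was 349 to 401 CPM in Rosa-Hes1 and 258 to 308 CPM in control cultures. Neutrophil and granulocyte precursor markers summed to 250 to 350.5 CPM in Rosa-Hes1 and 265 to 524 CPM in control cultures, and osteoblast and stroma markers to 113 to 378 CPM in Rosa-Hes1 and 179 to 486 CPM in control cultures, with 0 genes of either list called. RNA came from whole cultures, so a larger share of osteoclasts and more RNA of a gene per cell cannot be told apart, and the part of cell composition in the values below was not tested.

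By edgeR's quasi-likelihood test, 3 of the 35 genes were higher in Rosa-Hes1 cultures at an adjusted p under 0.05, and 0 were lower. DESeq2 called 1 lower, Shmt2, and limma-voom 0. The 3 higher genes were Eif2ak3, which encodes PERK, Ern1, which encodes IRE1α, and Edem1, a lectin of ER-associated degradation. Over all 16954 genes tested, 5.85% were higher and 2.41% lower, so 3 of 35 is not far from the background. None of the 13 chaperones and folding enzymes passed the threshold, and their log2 fold changes ran over -0.16 to 0.33. An unadjusted p under 0.05 was found for 10 of the 35 genes, of which 7 had a higher and 3 a lower level in Rosa-Hes1 cultures. The share of all genes tested with such a p was not counted. This count and those of unadjusted p below therefore have no background beside them. The median log2 fold change was -0.03 for the 35 genes and -0.01 for all genes tested.

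**Figure D1:**
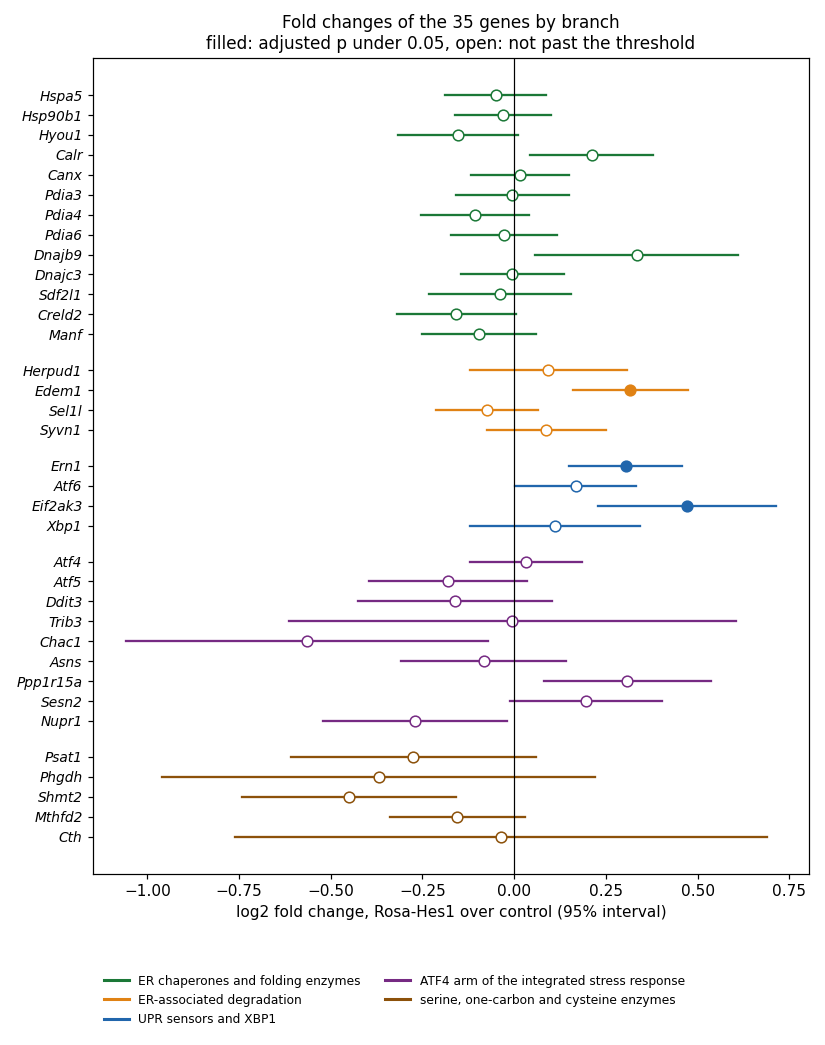
Log2 fold change of each of the 35 genes in Rosa-Hes1 over control cultures, with its 95% interval from the edgeR fit, grouped by branch and coloured by it. The 3 filled points, Edem1, Ern1 and Eif2ak3, lie right of 0, while 10 of 13 chaperone points lie left of 0 and all 5 metabolic enzymes lie left of it.

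Expression levels spanned a wide range, and levels of different genes are compared here as CPM per kilobase of exon. The chaperones led: Calr, which encodes the calcium-binding lectin chaperone calreticulin, had 557.7 CPM per kilobase in Rosa-Hes1 and 481.7 in control cultures. The disulfide isomerase gene Pdia3 had 293 CPM per kilobase in Rosa-Hes1 and 294 in control cultures. Hspa5, encoding the ER HSP70 chaperone BiP, had 289 in Rosa-Hes1 and 299.5 in control cultures. Atf4 was the most abundant regulator of the 35 genes, at 113 CPM per kilobase in Rosa-Hes1 and 110.1 in control cultures. At the other end, the ATF4 targets Trib3 and Chac1 had 1.17 and 4.87 CPM per kilobase in Rosa-Hes1 cultures, against 1.17 and 7.21 in control cultures, and Cth, the enzyme that makes cysteine from cystathionine, had 0.572 in Rosa-Hes1 and 0.587 in control cultures. The coefficient of variation between replicates of Cth was 34.3% in Rosa-Hes1 and 21.03% in control cultures. That of Trib3 was 32.0% in Rosa-Hes1 and 9.51% in control cultures, and that of Hsp90b1 was 0.814% in Rosa-Hes1 and 1.51% in control cultures.

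**Figure D2:**
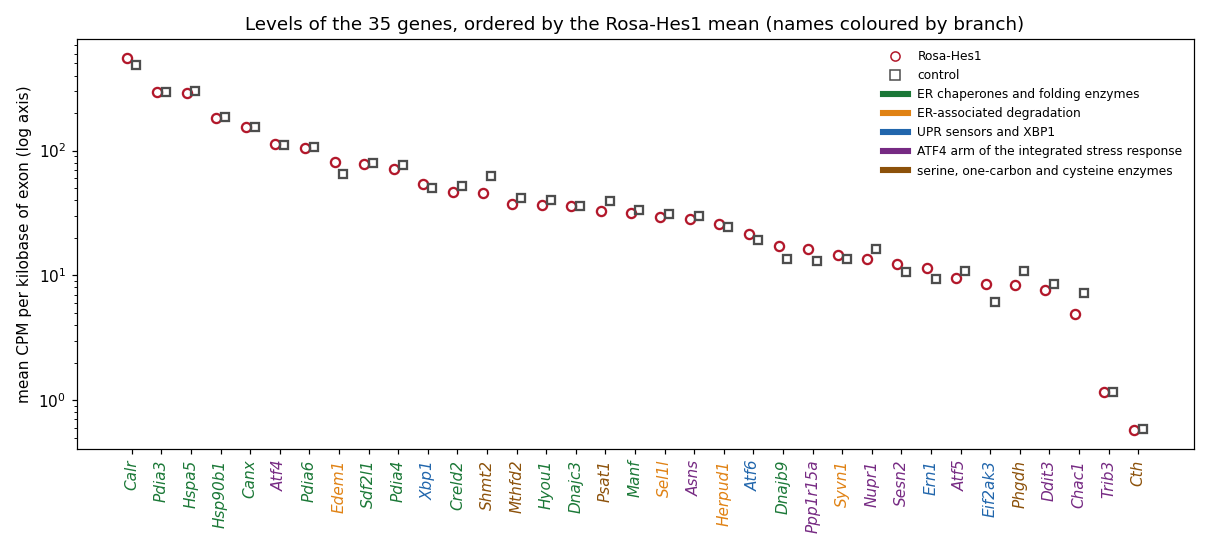
Mean level of each of the 35 genes in CPM per kilobase of exon on a log axis, as circles for Rosa-Hes1 and squares for control cultures, in the order of the Rosa-Hes1 means. The Rosa-Hes1 means run down to 0.572 for Cth from 557.7 for Calr, and within a gene the circle and the square lie close together.

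The 3 sensors stand at the head of the unfolded protein response. Eif2ak3 (chr6:70844515-70905245, plus strand, GRCm38) was at 55.0, 45.1 and 54.7 CPM in Rosa-Hes1 cultures, against 33.1, 39.5 and 39.0 CPM in control cultures. Every Rosa-Hes1 library was above every control library. This was a 1.39-fold higher level (log2 fold change 0.47, SE 0.11, adjusted p = 0.0326). Of its 6026 exon bases, 485 overlap an antisense gene model. Whether reads were counted by strand is not given in the sources used here, so part of its level is uncertain.

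Ern1 (chr11:106394650-106487852, minus strand) was at 91.7, 94.7 and 97.1 CPM in Rosa-Hes1 cultures and at 78.6, 79.2 and 71.8 CPM in control cultures. The groups did not overlap and each was tight, and the level was 1.23-fold higher (log2 fold change 0.30, SE 0.07, adjusted p = 0.0312). Atf6, encoding the membrane-bound transcription factor, was at 215, 194 and 184 CPM in Rosa-Hes1 cultures, against 178, 179 and 172 CPM in control cultures. All 3 Rosa-Hes1 values were again the higher ones, but the log2 fold change of 0.17, with an interval of 0.002 to 0.33, did not pass the threshold (adjusted p = 0.190). Xbp1 was at 185, 166 and 180 CPM in Rosa-Hes1 cultures and at 146, 155 and 190 CPM in control cultures. Here control replicate 3 exceeded every Rosa-Hes1 library, and the log2 fold change of 0.11 (interval -0.12 to 0.34) had an adjusted p of 0.552. The spliced form of Xbp1 was not measured by these counts.

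**Figure D3:**
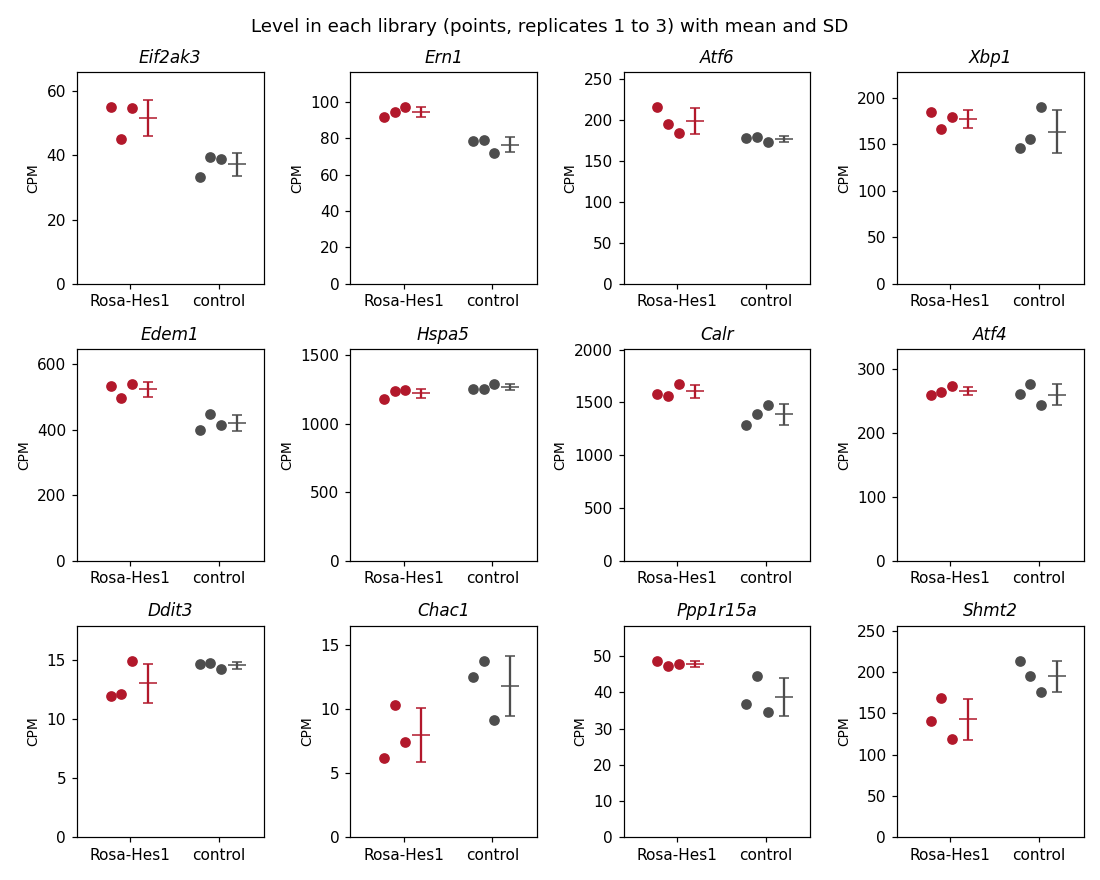
CPM of 12 genes in each library, with Rosa-Hes1 cultures on the left and control cultures on the right of each panel, from an axis that starts at 0; points are replicates 1 to 3 and bars are the mean and SD. The points of Eif2ak3, Ern1 and Edem1 do not overlap between groups, those of Hspa5 and Atf4 are nearly level, and those of Shmt2 lie lower in Rosa-Hes1 cultures.

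The summed level of the 4 genes was 547, 500 and 516 CPM in Rosa-Hes1 cultures, against 435, 453 and 473 CPM in control cultures. All 4 had a positive log2 fold change, and the median was 0.24. The mean of the sum in Rosa-Hes1 was 115% of the control mean, beside 151% for the osteoclast markers in the same libraries. Mmp9 and Ctsk were the most abundant of those markers, and the Cre replaces 1 Ctsk allele in Rosa-Hes1 mice only. Atf6 and Xbp1, which were not called, held means of 198 and 177 CPM of 521 in Rosa-Hes1 cultures. In control cultures they held 176 and 164 CPM of 454. Among Rosa-Hes1 libraries replicate 2 had the lowest sum of both, but the highest was replicate 1 for these 4 genes and replicate 3 for the osteoclast markers. Among controls replicate 1 had the lowest sum of both, and the highest was replicate 3 for these 4 genes and replicate 2 for the markers.

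ER-associated degradation draws misfolded proteins back to the cytosol for the proteasome. Edem1 (chr6:108828641-108859356, plus strand), whose product recognizes trimmed mannose chains on misfolded glycoproteins, was at 532, 497 and 539 CPM in Rosa-Hes1 cultures. In control cultures it was at 399, 447 and 414 CPM. All Rosa-Hes1 libraries lay above all controls, and the level was 1.25-fold higher (log2 fold change 0.32, SE 0.07, adjusted p = 0.0292). The other 3 genes of the group did not pass the threshold. Herpud1, a scaffold of the degradation complex, was at 63.1, 57.0 and 61.4 CPM in Rosa-Hes1 cultures and at 49.5, 61.4 and 59.2 CPM in control cultures (log2 fold change 0.09, adjusted p = 0.599). Syvn1, the ubiquitin ligase HRD1, was at 65.4, 71.5 and 74.5 CPM in Rosa-Hes1 cultures, against 66.7, 67.2 and 65.0 CPM in control cultures (log2 fold change 0.09, adjusted p = 0.503). The groups overlapped for both. Sel1l, the partner of HRD1, had a log2 fold change of -0.07 with an interval of -0.21 to 0.06. Edem1 was thus the member of this group that differed, and it was also its most abundant one per length, at 81.0 CPM per kilobase in Rosa-Hes1 and 65.0 in control cultures.

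These calls were sensitive to single libraries. The count of 3 genes became 0 when Rosa-Hes1 replicate 1 or replicate 3, or control replicate 1 or replicate 3, was left out. With control replicate 2 left out Edem1 alone of the 3 passed (adjusted p = 0.0393), together with Ppp1r15a. With Rosa-Hes1 replicate 2 left out all 3 passed, together with Dnajb9. Over the 13 alternatives the 3 log2 fold changes stayed positive, with an adjusted p of 0.00176 to 0.115 for Edem1, 0.00897 to 0.105 for Ern1 and 0.00326 to 0.132 for Eif2ak3.

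Of the 13 chaperones and folding enzymes, 0 passed the threshold, and 2 (Calr and Dnajb9) had an unadjusted p under 0.05. Limma-voom and the Wald test of DESeq2 also called 0 of them, and 1, Dnajb9, passed with Rosa-Hes1 replicate 2 left out (adjusted p = 0.0321). Their median absolute log2 fold change was 0.05, against 0.18 over the 12494 genes tested whose mean was 1 CPM or more. The lowest mean of a chaperone was 39.3 CPM, of Dnajb9, so these sets were not matched for abundance. Hspa5, the most used marker of ER stress, was at 1184, 1238 and 1247 CPM in Rosa-Hes1 cultures, against 1251, 1258 and 1291 CPM in control cultures. The Rosa-Hes1 values all lay below the control values, yet by so little that the log2 fold change was -0.05 (interval -0.19 to 0.09, adjusted p = 0.667). Hsp90b1, encoding the ER HSP90 chaperone GRP94, was at 743, 734 and 745 CPM in Rosa-Hes1 cultures and at 750, 749 and 769 CPM in control cultures (log2 fold change -0.03, interval -0.16 to 0.10). Canx, the membrane lectin calnexin, was at 742, 718 and 726 CPM in Rosa-Hes1 cultures, against 702, 727 and 732 CPM in control cultures (log2 fold change 0.02, interval -0.12 to 0.15). For these 3 abundant genes the intervals reach no further than -0.19 and 0.15. Of the 4032 exon bases of Hsp90b1, 632 overlap other gene models.

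Calr and Dnajb9 had the largest positive values of this group. Calr was at 1579, 1564 and 1675 CPM in Rosa-Hes1 cultures and at 1288, 1394 and 1480 CPM in control cultures. The groups did not overlap, but the log2 fold change of 0.21 (SE 0.07) had an adjusted p of 0.112. Dnajb9, a co-chaperone of BiP and a target of XBP1, was at 46.2, 37.8 and 47.4 CPM in Rosa-Hes1 cultures, against 29.8, 36.1 and 38.3 CPM in control cultures. The groups overlapped through Rosa-Hes1 replicate 2, and the log2 fold change of 0.33 (SE 0.12) had an adjusted p of 0.124. The other 8 members (Hyou1, Pdia3, Pdia4, Pdia6, Dnajc3, Sdf2l1, Creld2 and Manf) had log2 fold changes of -0.16 to -0.005. The summed level of all 13 was 6446, 6493 and 6656 CPM in Rosa-Hes1 cultures and 6219, 6394 and 6664 CPM in control cultures, and the groups overlapped.

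The promoters of the chaperones carry a known shared feature, and their sequences are shown because they hold the elements through which the sensors act. RefSeq promoters on GRCm38.p6, from 250 bases before to 50 bases after the RefSeq start of a gene, were matched for 31 of the 35 genes and searched on both strands. The ER stress response element (ERSE: CCAAT, any 9 bases, CCACG) binds ATF6 with the factor NF-Y. It was found in 8 of the 31 promoters, 7 of them among the 11 chaperone promoters (Hspa5, Hsp90b1, Calr, Canx, Pdia6, Dnajc3 and Creld2), and in 0.119% of all 32851 promoter windows of the same length. Capitals mark an element, read on the strand of the gene. All 30 bases shown for Hspa5 lie before the RefSeq start but in a GENCODE exon. That of Calr and the one shown of Hsp90b1 lie in the reverse orientation, and Hsp90b1 has another, forward one that begins at position -212 from the start.
Hspa5, chr2:34772020-34772049, plus strand: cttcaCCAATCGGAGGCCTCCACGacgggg
Hsp90b1, chr10:86705513-86705571, minus strand: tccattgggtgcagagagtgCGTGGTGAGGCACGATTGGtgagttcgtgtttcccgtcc
Calr, chr8:84847055-84847113, minus strand: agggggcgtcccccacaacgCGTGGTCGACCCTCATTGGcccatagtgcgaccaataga
Canx, chr11:50325780-50325838, minus strand: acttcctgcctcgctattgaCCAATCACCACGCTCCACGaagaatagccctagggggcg
Syvn1, chr19:6046512-6046570, plus strand: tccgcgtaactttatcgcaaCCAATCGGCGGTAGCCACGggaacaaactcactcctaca
These 5 genes had log2 fold changes of -0.05 for Hspa5, -0.03 for Hsp90b1, 0.21 for Calr, 0.02 for Canx and 0.09 for Syvn1, and none passed the threshold.

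The 3 genes that were higher had no match to the ERSE in their windows, nor to the ERSE-II (ATTGG, any base, CCACG), the UPR element (TGACGTGG) or the C/EBP-ATF element (TGATGNAA). HES1 sites known from other genes were searched as well. The N box (CACNAG), a short motif, was in 13 of the 31 member genes and in 42.5% of all windows. The class C site (CACGCG) was in 8 of the 31 genes and in 9.27% of all windows. Edem1, Ern1 and Eif2ak3 each had an N box and none had a class C site. Stretches of the 3 promoters follow, with N boxes of either strand in capitals. That of Eif2ak3 lies after the RefSeq start of the gene, so its stretch has no capitals. That of Ern1 lies before the RefSeq start but within the gene bounds given above, which are those of GENCODE. Of the 30 bases shown for Ern1, 22 lie in a GENCODE exon.
Edem1, chr6:108828521-108828640, plus strand: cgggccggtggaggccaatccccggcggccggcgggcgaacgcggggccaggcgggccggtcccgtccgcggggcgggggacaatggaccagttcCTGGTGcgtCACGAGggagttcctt
Ern1, chr11:106487831-106487860, minus strand: aagaagccgggaCACAAGgcacttataggg
Eif2ak3, chr6:70844395-70844514, plus strand: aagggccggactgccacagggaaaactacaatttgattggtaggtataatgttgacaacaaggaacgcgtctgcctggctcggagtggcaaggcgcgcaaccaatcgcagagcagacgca
A match is a description of the letters in this window and says nothing of whether a factor was bound in these cultures.

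ATF4 is the transcription factor of the integrated stress response, and its level is set largely by translation. Atf4 mRNA was at 260, 264 and 273 CPM in Rosa-Hes1 cultures, against 260, 276 and 243 CPM in control cultures. The groups overlapped, with a log2 fold change of 0.03 (interval -0.12 to 0.18, adjusted p = 0.823). Of the 9 genes of this arm 0 passed the threshold, 3 had an unadjusted p under 0.05 (Ppp1r15a, Chac1 and Nupr1), and 6 of the 9 log2 fold changes were negative. Limma-voom and DESeq2 also called 0 of the 9. Ddit3, the proapoptotic factor CHOP, was at 11.9, 12.1 and 14.9 CPM in Rosa-Hes1 cultures and at 14.6, 14.7 and 14.2 CPM in control cultures (log2 fold change -0.16, adjusted p = 0.441). Its exons overlap those of Mars and of a second Ensembl entry for Ddit3, which had no counts, so its level is uncertain.

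Ppp1r15a, known as GADD34, brings a phosphatase to eIF2α and so ends the response. It was at 48.7, 47.2 and 47.8 CPM in Rosa-Hes1 cultures, against 36.8, 44.5 and 34.5 CPM in control cultures. The Rosa-Hes1 libraries lay close together and above all controls, and the log2 fold change of 0.31 (SE 0.10) had an adjusted p of 0.0948. Chac1, which degrades glutathione, was at 6.20, 10.3 and 7.42 CPM in Rosa-Hes1 cultures and at 12.5, 13.7 and 9.17 CPM in control cultures. The groups overlapped, and the log2 fold change of -0.57 (interval -1.06 to -0.07) had an adjusted p of 0.144. Asns, asparagine synthetase, was at 73.8, 88.7 and 69.6 CPM in Rosa-Hes1 cultures, against 83.5, 85.9 and 76.5 CPM in control cultures (log2 fold change -0.08, adjusted p = 0.665). The other 4 genes were Sesn2, an inhibitor of mTORC1 signaling, at a log2 fold change of 0.20, Trib3, a pseudokinase that restrains the response, at -0.005, Atf5 at -0.18 and Nupr1 at -0.27. Without control replicate 2, Ppp1r15a passed the threshold (adjusted p = 0.036), and without Rosa-Hes1 replicate 2 Chac1 did (adjusted p = 0.0337).

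ATF4 acts through the C/EBP-ATF element, which was present in the promoters of Asns, Chac1, Nupr1 and Trib3 and in that of Herpud1, 5 of 31 in all, against 3.97% of all windows. The Herpud1 promoter also holds the 1 ERSE-II match among the 31 genes, an element found in 0.0365% of all windows. Capitals mark the element, and in Herpud1 both, with the ERSE-II as the second. All 30 bases shown for Asns lie before the RefSeq start but in a GENCODE exon.
Chac1, chr2:119351029-119351076, plus strand: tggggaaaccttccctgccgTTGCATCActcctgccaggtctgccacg
Asns, chr6:7693214-7693243, minus strand: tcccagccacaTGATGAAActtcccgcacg
Herpud1, chr8:94386309-94386397, plus strand: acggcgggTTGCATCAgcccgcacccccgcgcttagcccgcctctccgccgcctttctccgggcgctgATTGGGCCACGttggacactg
None of the 5 genes passed the threshold, and their log2 fold changes were -0.08 for Asns, -0.57 for Chac1, -0.27 for Nupr1, -0.005 for Trib3 and 0.09 for Herpud1.

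The 5 enzymes that make serine, pass on its one-carbon unit and make cysteine are ATF4 targets. Those of serine and one-carbon metabolism, but not Cth, also help supply dividing cells with nucleotides. Of the 5, 0 passed the threshold and all 5 had a negative log2 fold change, with a median of -0.28. By the Wald test of DESeq2 1 of them, Shmt2, did pass (adjusted p = 0.00985), as it did with Rosa-Hes1 replicate 2 left out (log2 fold change -0.59, adjusted p = 0.0119), and it was the 1 with an unadjusted p under 0.05 in edgeR. Shmt2, the mitochondrial serine hydroxymethyltransferase, was at 140, 168 and 119 CPM in Rosa-Hes1 cultures, against 213, 195 and 175 CPM in control cultures. Every Rosa-Hes1 value lay below every control value, and the log2 fold change of -0.45 (SE 0.13) had an adjusted p of 0.0683. Psat1, phosphoserine aminotransferase, was at 148, 160 and 108 CPM in Rosa-Hes1 cultures and at 177, 177 and 149 CPM in control cultures. Here the groups overlapped, and the log2 fold change was -0.28 (interval -0.61 to 0.06). Phgdh, the first enzyme of serine synthesis, had -0.37, Mthfd2, a mitochondrial folate enzyme, -0.16 and Cth -0.04 on the log2 scale.

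The summed level of the 5 enzymes was 444, 495 and 365 CPM in Rosa-Hes1 cultures, against 565, 563 and 484 CPM in control cultures. The mean in Rosa-Hes1 was 80.9% of the control mean. The dividing cell markers moved in the same libraries, at 1963, 2426 and 1580 CPM in Rosa-Hes1 cultures and at 2971, 2757 and 2596 CPM in control cultures. In both sums Rosa-Hes1 replicate 3 was lowest and replicate 2 was nearest the controls, and control replicate 3 was the lowest control. All 12 of these markers had a negative log2 fold change (median -0.48), and the part of cell division in the level of the enzymes was not tested. The ATF4 arm summed to 503, 513 and 514 CPM in Rosa-Hes1 cultures and to 504, 539 and 482 CPM in control cultures. Of these sums, Atf4 itself held 260, 264 and 273 CPM in Rosa-Hes1 and 260, 276 and 243 CPM in control cultures.

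**Figure D4:**
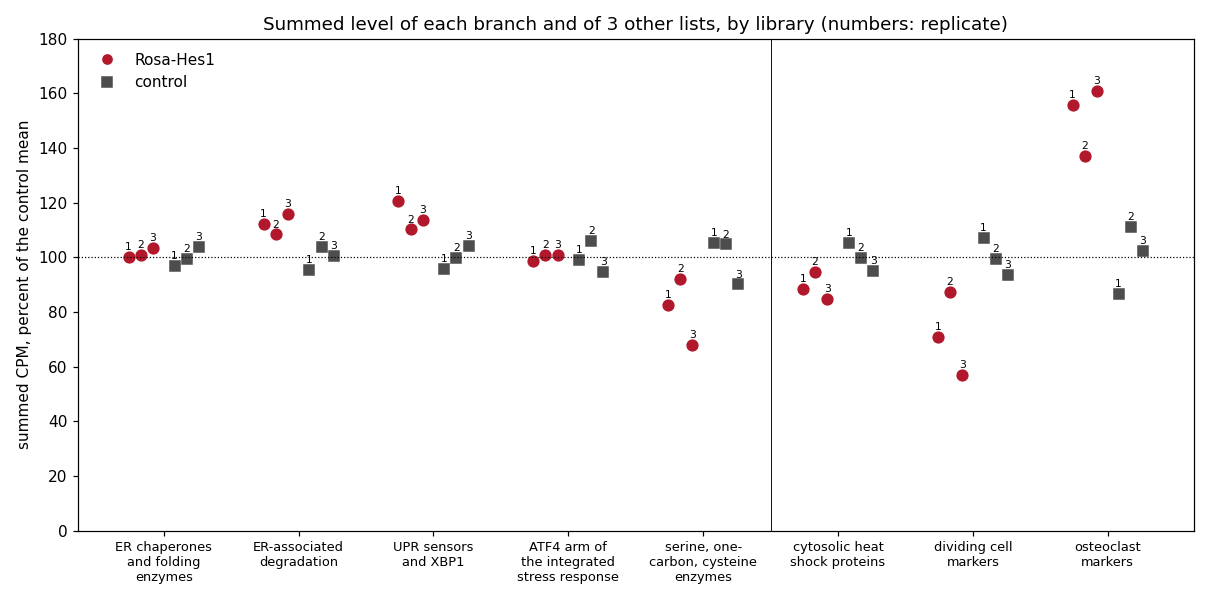
Summed CPM of the 5 branches and, right of the line, of cytosolic heat shock proteins, dividing cell markers and osteoclast markers in each library, as a percent of the control mean; circles are Rosa-Hes1 and squares control cultures, numbered by replicate. Chaperones and the ATF4 arm stay near 100%, and the sensors and ER-associated degradation lie above it in Rosa-Hes1 cultures. The serine and one-carbon enzymes lie on average below it there, as the dividing cell markers do. Edem1 holds most of the ER-associated degradation sum, at a mean of 523 CPM of 904 in Rosa-Hes1 cultures. In control cultures it holds 420 CPM of 806, and the other 3 genes of that branch were not called.

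Over the 35 genes, 7 had all 3 Rosa-Hes1 libraries above all 3 controls (Edem1, Ern1, Eif2ak3, Atf6, Calr, Ppp1r15a and Sesn2) and 7 had them below (Hspa5, Hsp90b1, Hyou1, Pdia4, Creld2, Atf5 and Shmt2). Of all genes tested 16.6% were separated upward and 14.5% downward, so both counts are near the background. A log2 fold change beyond 0.5 in either direction was seen in 1 of the 35 genes, Chac1, against 13.7% of the 12494 genes tested whose mean was 1 CPM or more. These sets were not matched for abundance.

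Other genes of these pathways, 161 in 6 lists drawn up from pathway knowledge, were counted in the same test. Of the 160 that passed the filter, 10 were higher and 1 was lower, beside 5.85% and 2.41% of all genes. Among 16 eIF2 kinases, eIF2 and eIF2B subunits and regulators of translation, 1 was higher. It was Eif4ebp1, an inhibitor of cap-dependent translation and an ATF4 target, at 190, 150 and 176 CPM in Rosa-Hes1 cultures, against 111, 128 and 120 CPM in control cultures (log2 fold change 0.52, SE 0.10, adjusted p = 0.0172). Among 33 other ER folding factors, Ero1lb, an ER oxidase, was higher (log2 fold change 0.42, adjusted p = 0.0237), and Cnpy3, a co-chaperone of GRP94 for Toll-like receptors, was lower (log2 fold change -0.27, adjusted p = 0.0492). Among 26 other ER degradation factors 1 was higher, Ubxn4, which recruits the ATPase p97 to the ER (log2 fold change 0.33, adjusted p = 0.027). Of 31 genes of the translocon, the signal peptidase and COPII vesicles 0 passed, and 3 had an unadjusted p under 0.05.

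Of 14 transcription factors linked to the response 3 were higher, beside 5.85% of all genes tested. That count was 0 when Rosa-Hes1 replicate 1 or replicate 3, or control replicate 1 or replicate 3, was left out. It was 2 with control replicate 2 left out, and 1 with the replicate number as a block. Creb3l2 and Creb3 encode factors cut from the membrane in the Golgi as ATF6 is, and Jdp2 encodes a basic leucine zipper factor known for a role in osteoclast formation. Creb3l2 was at 68.2, 70.9 and 70.8 CPM in Rosa-Hes1 cultures, against 51.9, 57.5 and 44.7 CPM in control cultures (log2 fold change 0.45, adjusted p = 0.0268). Creb3 and Jdp2 had log2 fold changes of 0.37 (adjusted p = 0.0381) and 0.36 (adjusted p = 0.045). Of 40 other ATF4 targets tested 4 were higher and 0 lower, beside 5.85% and 2.41% of all genes tested. Among them were Slc38a2, a carrier of neutral amino acids, at a log2 fold change of 0.39 (adjusted p = 0.0168), Map1lc3b, the autophagy protein LC3B, at 0.40 (adjusted p = 0.0264), and Vegfa, a growth factor that ATF4 shares with other inducers, at 1.08 (adjusted p = 0.0395). Vegfa was at 103, 53.0 and 93.1 CPM in Rosa-Hes1 cultures, against 42.2, 36.5 and 39.3 CPM in control cultures, so that Rosa-Hes1 replicate 2 stood far below replicates 1 and 3. Without a filter on low counts Vegfa did not pass (adjusted p = 0.140). The median log2 fold change of the 40 targets was -0.0001. The count of 11 changed genes over the 6 lists was 0 when Rosa-Hes1 replicate 1, control replicate 1 or control replicate 3 was left out, 1 with Rosa-Hes1 replicate 3 left out, 4 with control replicate 2 left out, and 27 with Rosa-Hes1 replicate 2 left out.

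Stress responses of other compartments were counted for comparison. Of 12 mitochondrial chaperones and proteases 3 were higher, all of them proteases of the matrix or inner membrane, Lonp1 (log2 fold change 0.44, adjusted p = 0.0317), Afg3l2 (0.34, adjusted p = 0.0211) and Spg7 (0.32, adjusted p = 0.0327). The background was 5.85% higher, and the count was 0 when Rosa-Hes1 replicate 1 or replicate 3, or control replicate 1 or replicate 3, was left out, and 1 with control replicate 2 left out. Of 14 cytosolic heat shock proteins 0 passed the threshold, 5 had an unadjusted p under 0.05, and 12 of the 14 log2 fold changes were negative, with a median of -0.19.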

How the data were processed

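RNA-Seq was analysed in 3 Rosa-Hes1 and 3 control libraries, grouped by the sample labels. The authors deposited counts of reads per Ensembl mouse gene, with no normalization, made from paired-end TruSeq Stranded libraries. Reads were trimmed (Sickle), aligned (HISAT2 2.1.0, SAMtools 1.9), cleared of PCR duplicates (Picard) and counted (HTSeq-count). Removing duplicates lowers the counts of abundant genes, and the chaperones are among them. The submitters' processing notes name GRCm38, whereas the methods name a human genome. The identifiers are mouse ones, and names and positions came from GENCODE M21 (5 tested genes had no symbol). Reads outside genes, 17.4% to 18.1% of each library, were left out.

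The test was edgeR 4.0.16 (R 4.3.3) with TMM scaling, robust quasi-likelihood dispersions and no covariate, on genes whose counts over the 6 libraries summed to 10 or more, with p-values adjusted by Benjamini-Hochberg over all 16954 of them. SE is the log2 fold change divided by the root of F, and intervals are 95% intervals on the same degrees of freedom. The biological coefficient of variation was 0.124, and libraries of 1 group differed by 9.49 to 18.4 times counting noise. The labels call the libraries biological replicates and do not say from how many mice each came. The procedure was tested on simulated data. Alternatives were DESeq2 size factors, upper-quartile scaling, no filter, filterByExpr, DESeq2 1.42.0 with its Wald test, voom in limma 3.58.1, the replicate number as a block and each library left out.

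The members and lists were chosen with earlier results of these data known. Values per library are given for called members, per branch the member with the highest level and the one with the smallest adjusted p, the sensors, Xbp1, Atf4 and Ddit3, and for each further list up to 3 called genes with the smallest adjusted p are named. Hspa5, Hsp90b1, Canx, Dnajb9, Herpud1, Syvn1, Chac1, Asns and Psat1 were added after their values were seen. A comparison of protein ends was planned and not run.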

Additional observations from a re-analysis of the deposited data

How the results depend on the processing

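The counts of members that were higher and lower, 3 and 0, were the same with both other scalings, both other filters and limma-voom. The Wald test of DESeq2 gave 1 lower member, Shmt2, 2169 changed genes over the transcriptome in place of 1399, and 20 changed genes of the 6 further pathway lists in place of 11. Same-numbered libraries of the groups correlated at 0.0007, -0.16 and 0.38 in their deviations from the group means, so the numbers were not treated as pairs. The number of Rosa-Hes1 replicate 3 is that of its label, and its deposited data carry a different one. With the replicate block 0 members were higher and 1 (Shmt2) was lower, and 6 genes of the further lists changed; the adjusted p of Edem1, Ern1 and Eif2ak3 was then 0.059, 0.06 and 0.057, that of Shmt2 was 0.0395, and 1 of the 12 mitochondrial chaperones and proteases was higher. Limma-voom ended the call of Cnpy3 (adjusted p = 0.0532). Leaving out 1 library gave 0 to 4 higher members, 0 to 2 lower members, 265 to 2646 changed genes in all and 0 to 27 of the further lists. The highest counts were those without Rosa-Hes1 replicate 2, and each of these fits rests on fewer libraries. Log2 fold changes of 8 uncalled members changed sign among the fits without 1 library, with ranges of -0.29 to 0.18 for Trib3, -0.35 to 0.14 for Cth, -0.0425 to 0.0184 for Dnajc3, -0.038 to 0.0435 for Pdia3, -0.0557 to 0.0133 for Pdia6, -0.003 to 0.0278 for Canx, -0.0137 to 0.0778 for Atf4 and -0.11 to 0.0403 for Sdf2l1. Trib3 and Cth were under 5 CPM in every library, and changes of their size are not resolved at this depth.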
